A study of Mus musculus with 39 samples.

Results

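The 9 genes described here are read as markers of alternative (interleukin-4 type) macrophage activation, or stand beside them as a relative: Arg1 and its mitochondrial relative Arg2 (the arginases), Chil3 and Retnla (secreted effector proteins), Mrc1 (the mannose receptor), Il4ra (the interleukin-4 receptor alpha chain), Ccl17 and Ccl24 (chemokines) and Pdcd1lg2 (the PD-L2 checkpoint ligand). They were taken by symbol from a fixed list, and each matched 1 row of the 43430 gene rows in the count table. The study measured RNA in 39 libraries of cells sorted from lungs of C57BL/6J mice: 19 of Siglec F-low macrophages taken after bleomycin, which injures the lung and leads to fibrosis, and 20 of lung monocytes from naive mice. Mice were young (8 to 12 weeks in the sample labels, 3 to 5 months in the series text) or old (over 18 months in the labels, 18 to 24 in the series text), and received saline (called vehicle in the series text) or ISRIB, a small molecule that acts on eIF2B and blunts the integrated stress response. In the bleomycin mice the injections were intraperitoneal and daily from day 7, and cells were taken on day 21. No schedule is given for the naive mice. The 8 groups hold 5 libraries each, except 4 of young ISRIB macrophages. All macrophages came from injured lungs and all monocytes from naive ones, so cell type and bleomycin cannot be told apart. The labels do not say that libraries of a group came from separate animals, so the p-values measure the spread between these libraries. In sorted bulk cells, fewer cells of a type and less RNA per cell cannot be told apart.

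In alternative activation, interleukin-4 or interleukin-13 binds a receptor that contains the Il4ra chain, Janus kinases phosphorylate STAT6, and STAT6 enters the nucleus and binds palindromic TTC and GAA half-sites near its target genes. Arg1, Chil3, Retnla, Mrc1, Ccl17, Ccl24 and Pdcd1lg2 are textbook targets of this pathway in mouse macrophages, while Arg2 encodes a mitochondrial arginase that is induced by other signals. Arginase turns arginine into urea and ornithine, the precursor of polyamines and proline, and alternatively activated macrophages are studied in the lung for their part in allergic inflammation, repair and fibrosis. Chil3 is also abundant in resident alveolar macrophages.

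The libraries held 4595331 to 16056708 counts, with a median of 8628240. Values below are read counts scaled to a library total of 1000000 (CPM), and levels of different genes are compared only per kilobase of exon (CPM per kb). Several markers differed in the direction of the sorts. Siglecf was 46.8 to 156 CPM in the macrophages and 0 to 1.57 in the monocytes, and Mertk was 326 to 600.0 against 0.485 to 7.47. Ly6c2, a classical monocyte gene, was 0.193 to 7.01 against 278 to 698. Of the 9 macrophage markers, C1qa, C1qb, C1qc, Cd68 and Itgax separated like Mertk. Adgre1 (413.8 to 632.3 against 290.7 to 556.5) and Fcgr1 (107 to 174 against 67.19 to 209.5) overlapped. Csf1r was lower in macrophages (881 to 1324 against 1653 to 2460). No pair of libraries within a group agreed within sampling noise (chi-square per degree of freedom of 7.04 to 52.8 over 76 pairs). None was therefore counted as the same library sequenced again. The check cannot show whether separate libraries came from the same animal. Replicate 4 of the young saline macrophages stood apart for 3 members, Arg1, Retnla and Ccl24. Log2 fold changes of Arg1 and Retnla that rest on it are given with and without it. Without it Ccl24 was too low to be tested among the macrophages. Ccl24 could be tested in 8 of the 9 refits that left out 1 young macrophage library. It could be tested in 7 of the 10 that left out 1 old one. Its macrophage tests therefore lie at the edge of the filter on low counts.

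The members spanned more than 3 orders of magnitude in the macrophages. Per kilobase, Chil3, a chitinase-like lectin, averaged 3758 CPM per kb over the 19 macrophage libraries, followed by Mrc1 at 237, Il4ra at 48.5, Arg1 at 46.5, Ccl17 at 29.9 and Retnla at 17.2. Pdcd1lg2 at 2.13, Arg2 at 1.93 and Ccl24 at 1.05 CPM per kb closed the order. Il4ra and Arg1 were neighbours with like means and unlike spread: the highest macrophage library exceeded the lowest 1.55 times for Il4ra and 137 times for Arg1. The same ratio was 26.7 for Retnla, 5.47 for Pdcd1lg2, 4.29 for Ccl17, 3.32 for Chil3 and 2.06 for Mrc1. In the monocytes the order was Chil3 at 659 CPM per kb, Il4ra at 34.5, Mrc1 at 5.95 and Arg2 at 2.63, and the other 5 members averaged 0.441 to 1.37.

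**Figure D1:**
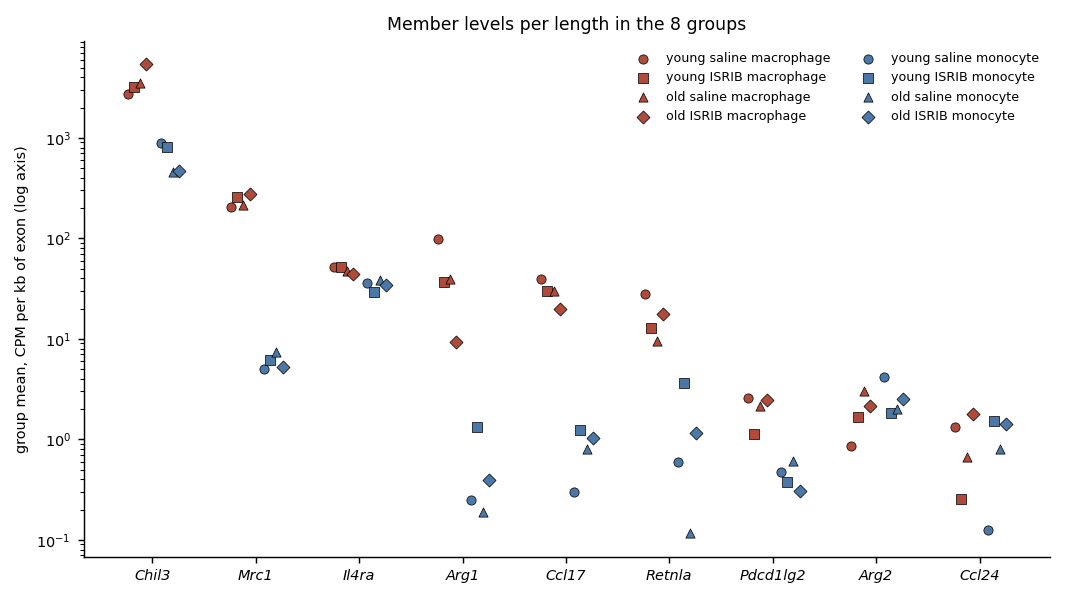
Mean level of each member in the 8 groups, in CPM per kilobase of exon on a log axis; each marker is a group mean, red for macrophages and blue for monocytes. Chil3 is highest in both cell types, Il4ra lies close in both, and the means of Arg1, Mrc1, Ccl17 and Retnla lie apart.

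The promoters of Ccl17, Retnla, Pdcd1lg2 and Chil3 are shown, as textbook targets of STAT6. Pairs of members varied together between libraries, though Pdcd1lg2 was in no pair that passed. The promoters of Mrc1 and Il4ra were also at hand and are not printed. Neither holds a STAT6-type palindrome in its 250 upstream bases. RefSeq promoter sequences of GRCm38.p6 were at hand for 6 of the 9 members; Arg1, Arg2 and Ccl24 were not among them. Each stretch lies upstream of the annotated start, 5′ to 3′ on the gene's strand, and capitals mark a STAT6-type palindrome, TTCNNNNGAA. The stretches are chr8:94810203-94810452 (plus strand) for Ccl17, chr16:48842359-48842550 (plus) for Retnla, chr19:29410669-29410918 (plus) for Pdcd1lg2 and chr3:106167565-106167814 (minus) for Chil3.
Ccl17: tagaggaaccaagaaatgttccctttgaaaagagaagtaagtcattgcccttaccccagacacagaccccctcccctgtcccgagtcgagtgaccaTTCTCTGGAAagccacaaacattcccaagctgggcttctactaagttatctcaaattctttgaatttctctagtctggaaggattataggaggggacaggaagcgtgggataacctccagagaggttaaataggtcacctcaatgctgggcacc
Retnla: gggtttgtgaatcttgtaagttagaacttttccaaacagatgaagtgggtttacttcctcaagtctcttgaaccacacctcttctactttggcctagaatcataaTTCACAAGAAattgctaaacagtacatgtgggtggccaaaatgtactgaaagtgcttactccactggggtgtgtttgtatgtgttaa
Pdcd1lg2: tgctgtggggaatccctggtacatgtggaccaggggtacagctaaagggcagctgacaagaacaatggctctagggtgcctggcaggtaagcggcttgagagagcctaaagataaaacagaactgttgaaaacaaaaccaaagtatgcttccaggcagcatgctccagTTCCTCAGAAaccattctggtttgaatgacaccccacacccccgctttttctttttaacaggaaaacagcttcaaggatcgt
Chil3: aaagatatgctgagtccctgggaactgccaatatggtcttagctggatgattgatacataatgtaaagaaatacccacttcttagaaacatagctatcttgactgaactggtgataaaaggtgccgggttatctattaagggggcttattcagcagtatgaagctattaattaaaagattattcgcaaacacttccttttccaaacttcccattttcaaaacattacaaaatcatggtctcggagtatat
The palindrome TTCNNNNGAA reads the same on both strands and lay in 3 of the 6 promoters, starting 154 bases before the RefSeq start in Ccl17 (TTCTCTGGAA), 145 before it in Retnla (TTCACAAGAA) and 82 before it in Pdcd1lg2 (TTCCTCAGAA). Over 250 upstream bases it was found in 5.85% of the 32851 RefSeq promoters. The shorter STAT palindrome TTCNNNGAA (7.02% of promoters) lay in Chil3 and Ccl17, the C/EBP-type TTGCNNAA or its complement TTNNGCAA (9.56%) in Retnla, and the PU.1-type GAGGAA or TTCCTC (23.3%) in Ccl17, Retnla, Pdcd1lg2 and Mrc1. In Pdcd1lg2 the PU.1-type letters overlap the STAT6-type match. A match of letters describes the sequence and shows no binding.

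Macrophages against monocytes asks which members mark the macrophages of the injured lung at each age. In saline mice, Arg1, Mrc1, Ccl17, Retnla, Chil3 and Pdcd1lg2 were higher in macrophages at both ages. In young saline mice 8 of the 9 members passed edgeR's quasi-likelihood test (adjusted p under 0.05 with the Benjamini-Hochberg method over the 13587 genes tested), 7 of them higher in macrophages. Across all genes 60.0% were called and 31% were called higher. In old saline mice 6 members were called, all higher, against 57.0% of all genes called and 29.7% called higher. The CPM of the groups did not overlap for 7 members in young and 6 in old mice, against 39.8% and 43.7% of all genes. The median log2 fold change of the members was 3.08 in young and 3.07 in old mice, and that of all genes was 0.01 and 0.0.

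Arg1 (ENSMUSG00000019987, chr10:24915221-24927484 in GRCm38, minus strand), the cytosolic arginase, had the largest difference of the members between the cell types. In young saline macrophages it was 129, 168, 66.9, 657 and 77.5 CPM (replicates 1 to 5), and in young saline monocytes 0.0981, 1.11, 0.695, 0.218 and 0.624. Every macrophage library lay above every monocyte library. The log2 fold change was 8.59 ± 0.95 (SE), a 385-fold difference (edgeR adjusted p = 4.7e-10), and 7.60 without macrophage replicate 4 (adjusted p = 1.19e-09). In old saline mice the fold was 205 (log2 7.68 ± 0.96, adjusted p = 7.15e-09), and 1 of the 5 old saline monocyte libraries had no Arg1 count.

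Mrc1 (ENSMUSG00000026712, chr2:14229392-14332057, plus strand), an endocytic receptor for mannose-ended glycoproteins, was 1311 ± 115 CPM (SD, n = 5) in young saline macrophages. In young saline monocytes it was 20.2, 33.6, 51.8, 31.5 and 22 CPM. The groups were far apart, with a log2 fold change of 5.41 ± 0.30 (42.4-fold, edgeR adjusted p = 1.03e-18) in young and 4.97 ± 0.29 (31.4-fold, adjusted p = 6.29e-18) in old saline mice. Ccl17 (ENSMUSG00000031780, chr8:94810453-94812036, plus strand), a ligand of CCR4 on T cells, was 20.4, 29.7, 15.3, 20.2 and 16.3 CPM in young saline macrophages. It had a count in only 2 of the 5 young saline monocyte libraries, at 0.0981 and 0.665 CPM. The log2 fold change was 6.81 ± 0.71 (112-fold, adjusted p = 9.94e-11) in young and 5.44 ± 0.63 (43.3-fold, adjusted p = 1.35e-09) in old mice. Pdcd1lg2 (ENSMUSG00000016498, chr19:29410919-29471161, plus strand), which engages PD-1 on T cells, was higher in macrophages by 2.35 ± 0.72 (log2, adjusted p = 0.00483) in young and 1.98 ± 0.71 (adjusted p = 0.0156) in old mice.

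Retnla (ENSMUSG00000061100, chr16:48842551-48844461, plus strand), a small secreted resistin-like protein, was 14.5, 12.4, 8.00, 38.8 and 9.47 CPM in young saline macrophages. In the young saline monocytes it was 1.77 CPM in replicate 2 and 0 in the other libraries, so the groups did not overlap. The log2 fold change was 5.40 ± 0.90 (edgeR adjusted p = 2.31e-06), and 4.83 without macrophage replicate 4 (adjusted p = 2.05e-05). In old saline mice it was called too (adjusted p = 7.21e-06). The old saline monocytes held 3 Retnla counts in all, against 281 in the old saline macrophages, a CPM ratio of 92.4 with a 95% interval of 31.3 to 451 that covers counting error only. Chil3 (ENSMUSG00000040809, chr3:106147554-106167564, minus strand) was also abundant in monocytes: it was 1852, 1423, 860.1, 1469 and 1719 CPM in the young saline monocytes and 4019, 4565, 3970, 6327 and 3612 in the young saline macrophages. The groups did not overlap, at a log2 fold change of 1.65 ± 0.27 (3.14-fold, adjusted p = 1.32e-06). In old saline mice the fold was 8.40 (log2 3.07 ± 0.28, adjusted p = 3.17e-12). Of its 50-base exon windows, 16.9% occur in the near copy Chil4, so some Chil3 reads may have been left out or shared by the counting.

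The other 3 members did not separate in the same way. Il4ra (ENSMUSG00000030748, chr7:125552120-125579474, plus strand), the receptor chain, was 294, 265, 302, 336 and 359 CPM in young saline macrophages and 181, 140.1, 133, 107 and 523 in young saline monocytes. Monocyte replicate 5 was above every macrophage library, and the other 4 were below. The log2 difference was 0.57 ± 0.26 (edgeR adjusted p = 0.0608), 0.56 with no filter on low counts (adjusted p = 0.0439), 0.81 by limma voom (adjusted p = 0.00388) and 1.16 without monocyte replicate 5 (adjusted p = 7.2e-06). In old saline mice it was 0.42 ± 0.26 (adjusted p = 0.168), and 0.73 without monocyte replicate 2, the highest at 405 CPM (adjusted p = 0.0168). Arg2 (ENSMUSG00000021125, chr12:79130777-79156301, plus strand) was lower in macrophages of young saline mice, at -2.15 ± 0.60 on the log2 scale (adjusted p = 0.00235). Its macrophage libraries were at 0.824, 1.42, 1.79, 0 and 2.06 CPM and its monocyte libraries at 3.24, 3.10, 2.08, 13.1 and 8.62, with no overlap. In old saline mice Arg2 differed by 0.72 ± 0.57 (adjusted p = 0.287). Ccl24 (ENSMUSG00000004814, chr5:135569937-135573049, minus strand), an eosinophil-attracting ligand of CCR3, was called higher in young saline macrophages (log2 3.08 ± 1.15, adjusted p = 0.02). Its libraries were at 0.989, 0, 0.119, 7.11 and 0.311 CPM against 0.687, 0, 0, 0 and 0.125 in monocytes, and without macrophage replicate 4 the log2 difference was 0.82 (adjusted p = 0.558). By limma voom the Ccl24 difference was 1.75 (adjusted p = 0.232).

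Within the macrophages, the design asks how ISRIB and age bear on these genes. Arg1 was the most variable of the abundant members. Young saline macrophages averaged 220 ± 248 CPM (SD, n = 5), young ISRIB 81.9 ± 67.4 (n = 4), old saline 87.7 ± 103 (n = 5) and old ISRIB 20.7 ± 12.8 (n = 5). The 4 young ISRIB libraries were at 20.8, 49.3, 176 and 81.6 CPM, the old saline libraries at 73.3, 266, 14.7, 60.7 and 23.8, and the old ISRIB libraries at 36.1, 4.81, 31.2, 16.9 and 14.6. Replicate 4 of the young saline group and replicate 2 of the old saline group were the highest of their groups. The ranges overlapped in each comparison of age or of treatment, and within a group the highest library exceeded the lowest by 7.51 to 18.1 times. The edgeR biological coefficient of variation was 69.7% for Arg1, at the 94.0 percentile of the genes tested, against a common value of 20.6%. It was 101% for Ccl24, 51.4% for Arg2, 48.7% for Retnla, 36.8% for Ccl17, 35% for Pdcd1lg2, 22.7% for Chil3, 12.9% for Mrc1 and 10.7% for Il4ra.

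**Figure D2:**
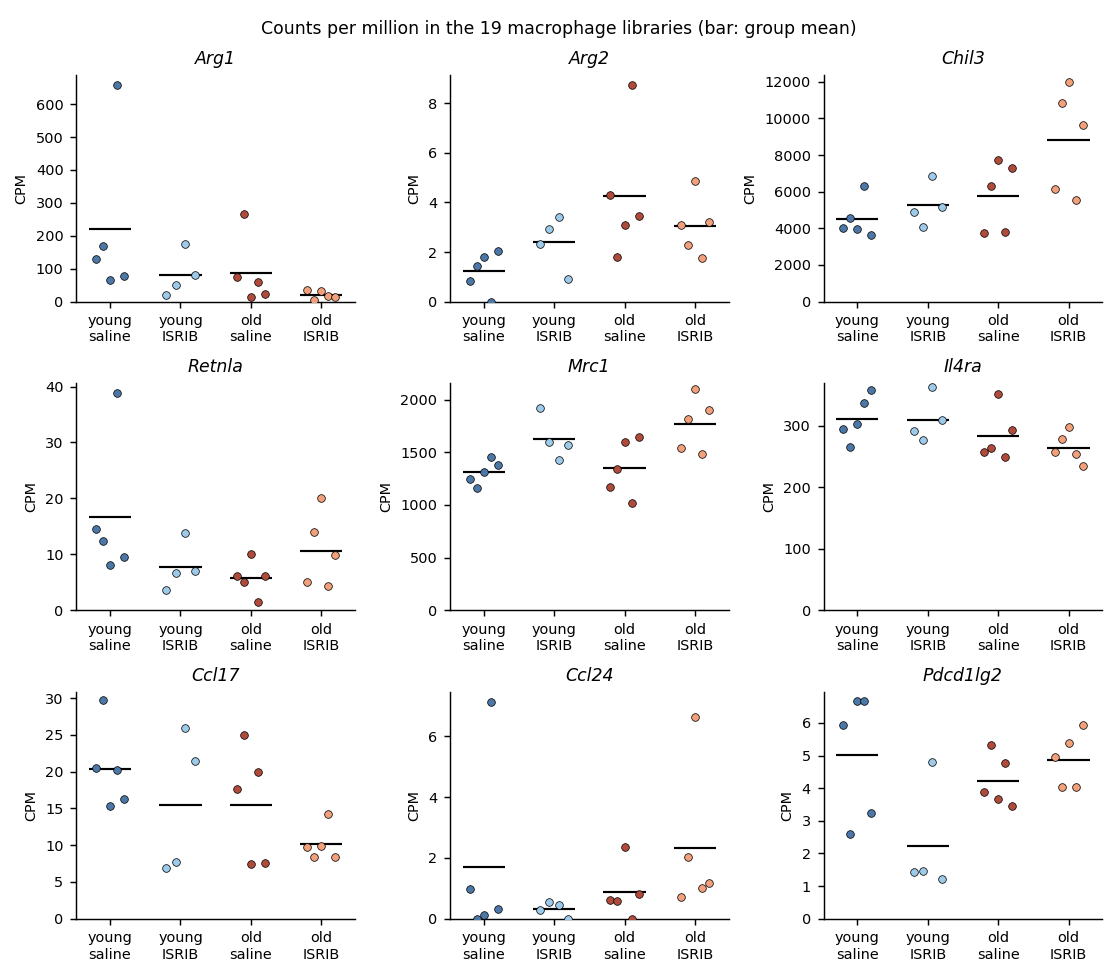
CPM of each member in every macrophage library, one panel per gene, by group (young saline, young ISRIB, old saline, old ISRIB). Points are libraries and bars are group means; young saline replicate 4 is the highest library for Arg1 (657 CPM), Retnla (38.8) and Ccl24 (7.11).

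For ISRIB against saline, no member was called in old macrophages or in young macrophages, and in both comparisons 0.0% of the 12171 genes tested were called by edgeR. At an unadjusted p under 0.05 there were 3 members in each, beside 1112 genes in old and 1513 in young macrophages. DESeq2 called 43 and 105 genes, none of them a member. The groups overlapped for every member, where 1.08% of all genes did not overlap in old and 3.9% in young macrophages. The median log2 fold change of the members was 0.19 in old and -0.39 in young macrophages. Averaged over the ages, 1 member was called, Mrc1, higher with ISRIB, where 0.83% of all genes were called and 0.452% were called higher. This averaged contrast was known from earlier work on these data to call more genes.

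Mrc1 was 1243, 1162, 1312, 1458 and 1379 CPM in young saline macrophages and 1920, 1597, 1425 and 1566 in young ISRIB macrophages. In old mice it was 1169, 1346, 1597, 1023 and 1641 with saline and 1542, 1816, 2104, 1486 and 1903 with ISRIB. The ISRIB libraries lay higher as a group at both ages, with overlap of the ranges. The log2 fold change averaged over ages was 0.35 ± 0.08, a 1.28-fold rise (edgeR adjusted p = 0.0341). It was 0.34 ± 0.12 in young (adjusted p = 0.214) and 0.37 ± 0.11 in old macrophages (adjusted p = 0.294), and neither was called alone. The averaged call was lost when any of 12 of the 19 libraries was left out: young saline 1, 2 or 3, young ISRIB 1, 2 or 4, old saline 1, 2 or 4, and old ISRIB 2, 3 or 5. The adjusted p was then 0.0529 to 0.11 and the log2 fold change 0.31 to 0.36. Over all 19 refits that left out 1 library the log2 fold change was 0.31 to 0.39. With the monocytes in the same fit the Mrc1 estimate was 0.35 as well, with an adjusted p of 0.417.

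The ISRIB difference in Arg1 did not pass in the young, in the old or on average. It was -2.09 ± 0.70 on the log2 scale in old (edgeR adjusted p = 0.373), -1.42 ± 0.71 in young (adjusted p = 0.414) and -1.76 ± 0.50 averaged (3.38-fold lower, adjusted p = 0.0772). Without young saline replicate 4 the value was -0.43 in young (adjusted p = 0.847) and -1.26 averaged (adjusted p = 0.155). Leaving out a library turned the averaged value into a call in 3 cases: young ISRIB 3 (-2.09, adjusted p = 0.0202), old saline 3 (-1.90, adjusted p = 0.0317) and old saline 5 (-1.88, adjusted p = 0.0359). With no filter on low counts, Arg1 was called lower with ISRIB in old macrophages (adjusted p = 1.25e-07), in young macrophages (0.00215) and on average (1.32e-10). Its log2 values were nearly the same there, at -2.11, -1.42 and -1.76. The setting raised the calls over all genes as well, to 220, 224 and 640 from 0, 0 and 101 with the filter. Why the p-values fell was not tested.

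The other members under ISRIB were as follows. Chil3 was 3758, 6331, 7715, 3780 and 7307 CPM in old saline macrophages and 6148, 10827, 11978, 5549 and 9626 in old ISRIB macrophages, a log2 difference of 0.59 ± 0.20 (edgeR adjusted p = 0.384), and averaged over ages it was 0.42 ± 0.15 (adjusted p = 0.138). The 2 saline libraries below every ISRIB library were replicates 1 and 4, and the ranges overlapped. With no filter on low counts the same Chil3 differences were called (adjusted p = 0.000331 in old and 0.000297 averaged), as was Mrc1 in old macrophages (0.36, adjusted p = 0.02). Retnla was 3.57, 6.61, 13.8 and 7.03 CPM in young ISRIB macrophages, and 4.97, 14, 20.1, 4.29 and 9.82 in old ISRIB macrophages beside 6.07, 5.09, 10.1, 1.45 and 6.11 with saline. Its ISRIB difference was -1.09 ± 0.49 in young mice (adjusted p = 0.362), -0.51 there without young saline 4 (adjusted p = 0.718), and 0.84 ± 0.46 in old mice (adjusted p = 0.603). Il4ra was -0.12 ± 0.09 in old macrophages (adjusted p = 0.749). Pdcd1lg2 was 5.93, 2.59, 6.69, 6.68 and 3.24 CPM in young saline and 1.45, 1.46, 4.82 and 1.22 in young ISRIB macrophages. ISRIB replicate 3 was within the saline range and the other 3 were below it. The Pdcd1lg2 difference was -1.16 ± 0.41 (adjusted p = 0.229), and -1.80 without that library (adjusted p = 0.0247).

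Of the chemokines, Ccl17 was 6.94, 7.74, 26 and 21.4 CPM in young ISRIB libraries and 9.73, 8.35, 9.87, 14.3 and 8.40 in old ISRIB libraries. Its ISRIB difference was -0.39 ± 0.36 in young (edgeR adjusted p = 0.7), -0.64 ± 0.35 in old (adjusted p = 0.603) and -0.51 ± 0.25 averaged (adjusted p = 0.308). That of Ccl24 was -2.23 ± 1.18 in young (adjusted p = 0.442) and 1.34 ± 0.97 in old macrophages (adjusted p = 0.725). Arg2 was at 0.94 ± 0.60 and Chil3 at 0.25 ± 0.21 in young macrophages (adjusted p = 0.532 and 0.677), and Pdcd1lg2 at -0.49 ± 0.27 averaged (adjusted p = 0.384).

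Whether the ISRIB difference itself varied with age was tested by the interaction term. No member was called, and 0.0% of all genes were; 3 members and 621 genes had an unadjusted p under 0.05. DESeq2 and limma voom called no member either. Retnla had the smallest of these p-values, at 0.00865: the old-minus-young difference of its ISRIB effects was 1.93 ± 0.68 on the log2 scale (edgeR adjusted p = 0.954), and 1.35 without young saline replicate 4 (adjusted p = 0.998). With no filter on low counts Retnla was called (adjusted p = 0.0185), where 33 of all genes were. Ccl24 was at 3.57 ± 1.53 and Pdcd1lg2 at 1.35 ± 0.55 (adjusted p = 0.954 for both). Arg2 was at -1.46 ± 0.81 (adjusted p = 0.959), Chil3 at 0.35 ± 0.30 (0.98) and Il4ra at -0.14 ± 0.13 (0.981).

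**Figure D3:**
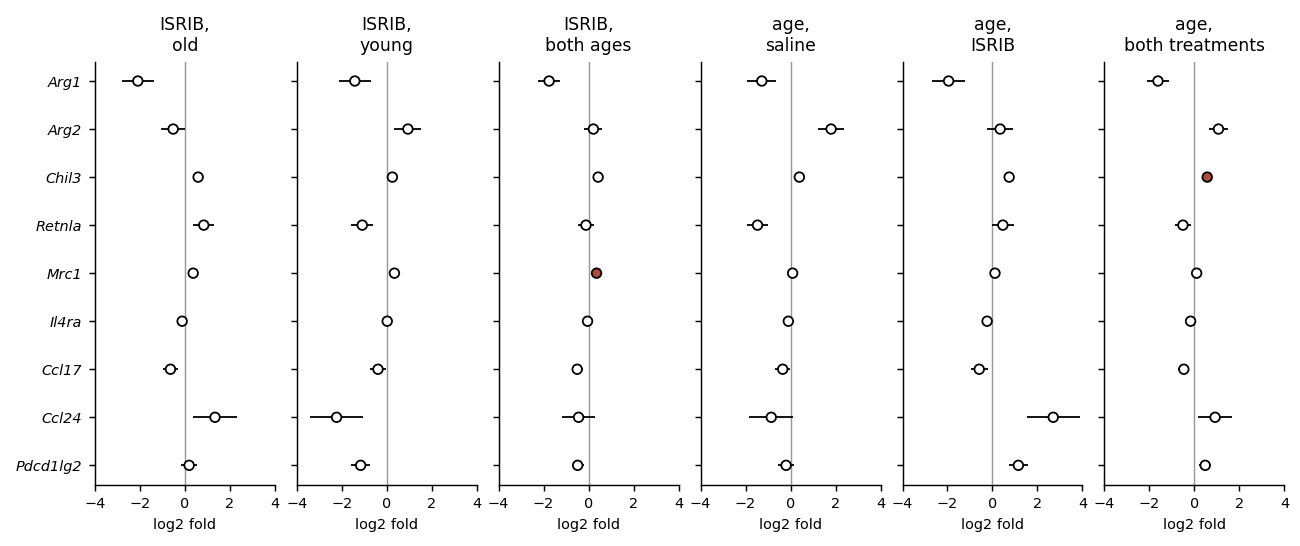
Log2 fold changes of the 9 members in macrophages with their standard errors (bars), for ISRIB against saline in old, in young and averaged over both, and for old against young with saline, with ISRIB and averaged; filled points passed edgeR's adjusted p of 0.05. In the macrophages Mrc1 (0.35, ISRIB averaged over ages) and Chil3 (0.57, age averaged over treatments) passed.

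For old against young, Chil3 was higher in old macrophages when averaged over the treatments, a contrast also known beforehand to call more genes. It was 4019, 4565, 3970, 6327 and 3612 CPM in young saline, 4910, 4071, 6837 and 5185 in young ISRIB and, as given above, up to 7715 in old saline and 11978 in old ISRIB macrophages. The ranges of young and old overlapped within each treatment. The log2 fold change was 0.57 ± 0.15, a 1.48-fold rise with age (edgeR adjusted p = 0.0249), where 1 member was called against 4.86% of all genes called and 3.12% called higher in old. It was lost without young ISRIB 2 (0.52, adjusted p = 0.0528), old saline 3 (0.51, 0.0524), old saline 5 (0.52, 0.0543), old ISRIB 3 (0.51, 0.051) or old ISRIB 5 (0.54, 0.0513), and with all 39 libraries in the fit (0.57, 0.109). Within a treatment Chil3 differed by 0.39 ± 0.20 with saline (adjusted p = 0.434) and 0.74 ± 0.22 with ISRIB (adjusted p = 0.111, and 0.0466 at 0.86 without old ISRIB 4).

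No member was called within saline, where 1.16% of all genes were called, or within ISRIB, where 0.937% were. An unadjusted p under 0.05 was reached by 2 and 5 members, beside 1545 and 1485 of the 12171 genes tested. The members did not separate by age in saline macrophages, where 3.15% of all genes did, and 1 separated with ISRIB, against 4.91% of all genes: Ccl24 was 0.724, 2.02, 6.62, 1.01 and 1.16 CPM in old ISRIB and 0.289, 0.561, 0.466 and 0 in young ISRIB libraries (2.70 ± 1.18, edgeR adjusted p = 0.333). Arg1 was -1.28 ± 0.65 with saline (adjusted p = 0.429), -1.95 ± 0.73 with ISRIB (adjusted p = 0.237) and -1.62 ± 0.49 averaged (3.06-fold lower in old, adjusted p = 0.0571). Without young saline 4 the Arg1 values were -0.29 with saline (adjusted p = 0.922) and -1.12 averaged (adjusted p = 0.171). The averaged Arg1 difference was called without old saline 2 (-2.12, adjusted p = 0.00482), young ISRIB 1 (-1.78, 0.0317), young saline 3 (-1.74, 0.0452) or young saline 5 (-1.73, 0.0441), with all 39 libraries in the fit (-1.62, 0.0333) and with no filter on low counts (-1.61, 3.98e-10). With no filter it was also called within saline (0.00116) and within ISRIB (1.22e-06). That setting called 468 genes within saline, 405 within ISRIB and 975 averaged, against 141, 114 and 592 with the filter.

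Arg2 was 4.29, 1.81, 3.10, 8.72 and 3.46 CPM in old saline macrophages, beside at most 2.06 in young saline macrophages. Old replicate 2 alone lay within the young range, at a log2 difference of 1.80 ± 0.57 (edgeR adjusted p = 0.133), which DESeq2 called at 1.81 (adjusted p = 0.0276). Retnla differed by -1.47 ± 0.46 with saline (adjusted p = 0.13), by -0.90 without young saline 4 (adjusted p = 0.46), and by -0.51 ± 0.34 averaged (adjusted p = 0.468), or -0.22 without that library (adjusted p = 0.799). With no filter on low counts the saline difference of Retnla (-1.46, adjusted p = 0.00034) and of Chil3 (0.40, 0.034) and the ISRIB one of Chil3 (0.74, 3.12e-06) were called. Il4ra was within 234 to 363 CPM in all macrophage libraries, with an age difference of -0.10 ± 0.09 with saline (adjusted p = 0.73), -0.24 ± 0.10 with ISRIB (0.285) and -0.17 ± 0.07 averaged (0.159). Mrc1 differed with age by 0.10 ± 0.08 (adjusted p = 0.574) and Pdcd1lg2 by 0.48 ± 0.27 (adjusted p = 0.379), both averaged. With ISRIB, Pdcd1lg2 was at 1.15 ± 0.41 (adjusted p = 0.199). Ccl17 was at -0.35 ± 0.34 with saline, -0.59 ± 0.37 with ISRIB and -0.47 ± 0.25 averaged (adjusted p = 0.757, 0.561 and 0.342). Averaged over treatments Arg2 was at 1.07 ± 0.41 (adjusted p = 0.145) and Ccl24 at 0.92 ± 0.76 (adjusted p = 0.585).

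In the naive monocytes no member was called by edgeR for ISRIB in old, young or both ages (0.0% of the 12170 genes tested each) or for age with ISRIB (0.0%), with saline (0.0247%) or on average (0.123%). Ccl17 was too low to be tested there, so these counts are of 8 members. At an unadjusted p under 0.05 there were 1, 3 and 3 members for ISRIB and 2, 2 and 1 for age, in the same orders. Of all genes, 918, 809 and 911 had such a p for ISRIB in old, young and both ages. For age with ISRIB, with saline and on average, 803, 1072 and 1003 genes did. For ISRIB and for age with ISRIB, DESeq2 called 14, 0, 1 and 22 genes, none of them a member. In the same 4 comparisons limma voom called 0, 0, 0 and 1. Chil3 with age had the smallest adjusted p of these, and its direction was opposite to that in macrophages. It was 612, 626, 1292, 616 and 609 CPM in old saline and 835, 955, 561, 523 and 962 in old ISRIB monocytes, beside 860.1 to 1852 in young saline and 725 to 2098 in young ISRIB monocytes. Old saline replicate 3 reached the young range and the other 4 were below it. The averaged log2 difference was -0.88 ± 0.19 (adjusted p = 0.092), which DESeq2 called (adjusted p = 0.0232), as did the fits with all 39 libraries (0.0157) and with no filter (0.00327), and the fits without old saline 3 (-1.02, 0.0254), young ISRIB 4 (-0.96, 0.039) or young saline 3 (-0.95, 0.036). The saline age effects of Chil3 in macrophages and in monocytes differed by 1.42 ± 0.37 (adjusted p = 0.0757). No member was called for that difference, where 0.25% of all genes were. An unadjusted p under 0.05 was reached by 3 members, beside 1484 of the 13587 genes tested. DESeq2 called 141 genes there, 2 of them members, Chil3 (1.44, adjusted p = 0.0383) and Arg2 (2.96, 0.0252). Chil3 was also called with no filter (1.43, 0.0176) and without old saline monocyte 3 (1.71, 0.0277) or young saline monocyte 3 (1.56, 0.0488). Of all genes the main fit called 34, the fit with no filter 76 and the fits without 1 library 8 to 71.

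Arg1 in young ISRIB monocytes was 2.51, 0.284, 7.07, 4.29 and 0.605 CPM, where the young saline monocytes were at most 1.11. Replicates 1, 3 and 4 were above the saline range, and the log2 difference was 2.34 ± 0.84 (edgeR adjusted p = 0.689). The summed level of 12 mature alveolar macrophage markers in the same 5 libraries was 19.4, 10.2, 30.7, 29.8 and 4.36 CPM, highest where Arg1 was highest and lowest in replicate 5; its part in the result was not tested. Ccl24 in young monocytes was 3.27, 3.27, 2.18, 0.565 and 0.484 CPM with ISRIB, at a log2 difference of 3.23 ± 0.99 (adjusted p = 0.645). Averaged over ages the ISRIB difference was 1.70 ± 0.60 for Arg1 (adjusted p = 0.589) and 2.04 ± 0.65 for Ccl24 (adjusted p = 0.568). In old monocytes it was 1.07 ± 0.86 for Arg1 (adjusted p = 0.829), 0.85 ± 0.82 for Ccl24 (0.868) and -0.46 ± 0.32 for Mrc1 (0.801). Arg2 was at -1.22 ± 0.58 in young (adjusted p = 0.746) and -0.42 ± 0.41 averaged (0.822).

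With age, Chil3 in monocytes was at -1.01 ± 0.28 with saline (edgeR adjusted p = 0.232) and -0.75 ± 0.27 with ISRIB (adjusted p = 0.601). With saline, Ccl24 was at 2.34 ± 1.0 (adjusted p = 0.482), Arg2 at -1.07 ± 0.57 (0.619) and Mrc1 at 0.54 ± 0.32 (0.68). Arg1 was at -1.66 ± 0.79 with ISRIB (adjusted p = 0.755) and -1.02 ± 0.60 averaged (0.72), and Ccl24 at 1.15 ± 0.64 averaged (0.688). Retnla had no count in 10 of the 20 monocyte libraries, and no monocyte fold change of it is given for groups that include the old saline monocytes, with 3 counts in all. By pooled counts Retnla was 9.87 times higher in old ISRIB than in old saline monocytes (29 against 3 counts, 95% counting interval 3.06 to 50.6). That interval covers counting error and not the spread between libraries, so it is no test of ISRIB. All 3 saline counts were in replicate 1, and the other 4 libraries had none. Old ISRIB replicate 4 was at 2.14 CPM and the next highest at 0.577. The fitted differences of Retnla were 2.45 ± 1.18 for ISRIB in young (adjusted p = 0.746) and -1.61 ± 1.11 for age with ISRIB (0.902). The difference of the saline age effects between macrophages and monocytes was 2.87 ± 0.83 for Arg2 (adjusted p = 0.132), -3.20 ± 1.51 for Ccl24 (0.432; -0.94 without young saline macrophage 4), -1.37 ± 1.08 for Ccl17 (0.696) and -0.44 ± 0.35 for Mrc1 (0.709).

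The members of the macrophage libraries were next compared with each other, after each group's mean was subtracted so that age and treatment do not enter. Of the 8 other members, Ccl17 varied with Arg1: Pearson's r was 0.72 over 19 libraries (permutation p = 0.0021, adjusted 0.0168) and Spearman's rho was 0.78 (permutation p = 0.00103, adjusted 0.00824). Without the 2 libraries farthest from the median of Arg1 it was 0.77. With any 1 library left out r was 0.67 to 0.81, and its adjusted p was above 0.05 without old saline 2 (0.0664) or old saline 3 (0.0588). Less their group means, old saline 2 and young ISRIB 3 were high for both genes (log2 2.31 and 1.45 for Arg1, 0.84 and 0.92 for Ccl17), and old saline 3 and young ISRIB 1 were low for both (-1.89 and -1.58, -0.92 and -0.92). The other 7 did not pass with Arg1: Pdcd1lg2 was at r = 0.48 (adjusted permutation p = 0.201), Mrc1 at -0.36 (0.386), Arg2 at -0.35 (0.386), Retnla at 0.22 (0.649) and Chil3 at 0.05 (0.863). Less group means, the log2 library total had r = -0.43 with Arg1 and -0.54 with Ccl17, and its part in their correlation was not tested.

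The remaining 28 pairs were added after the first 8 had been seen, and 5 of them passed when adjusted over the 28. How often other pairs of genes reach such r over these libraries was not tested, for the first 8 or for these. Chil3 and Retnla had r = 0.80 (adjusted permutation p = 0.00644; rho 0.79; 0.89 without 2 libraries), and Retnla and Ccl24 had r = 0.80 (0.00644; rho 0.77; 0.69 without 2). Mrc1 and Ccl17 went in opposite directions, at r = -0.72 (0.0307; rho -0.75; -0.66 without 2). Ccl24 was near the floor, with a median of 0.628 CPM, 209 counts over the 19 libraries and 3 libraries at 0. Less group means, young saline 4 was high for Retnla (log2 1.45) and Ccl24 (3.14). For their pair, r without that library alone is not given. Chil3 with Ccl24 (0.60, adjusted permutation p = 0.0451) and Mrc1 with Ccl24 (0.57, 0.0451) passed for r and not for rho (0.0806 and 0.145). Of the members in these pairs, Ccl17 and Retnla have the STAT6-type palindrome in their promoters, and Chil3 and Mrc1 do not. Promoters of Arg1 and Ccl24 were not at hand, and whether the motif bears on the correlations was not tested.

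**Figure D4:**
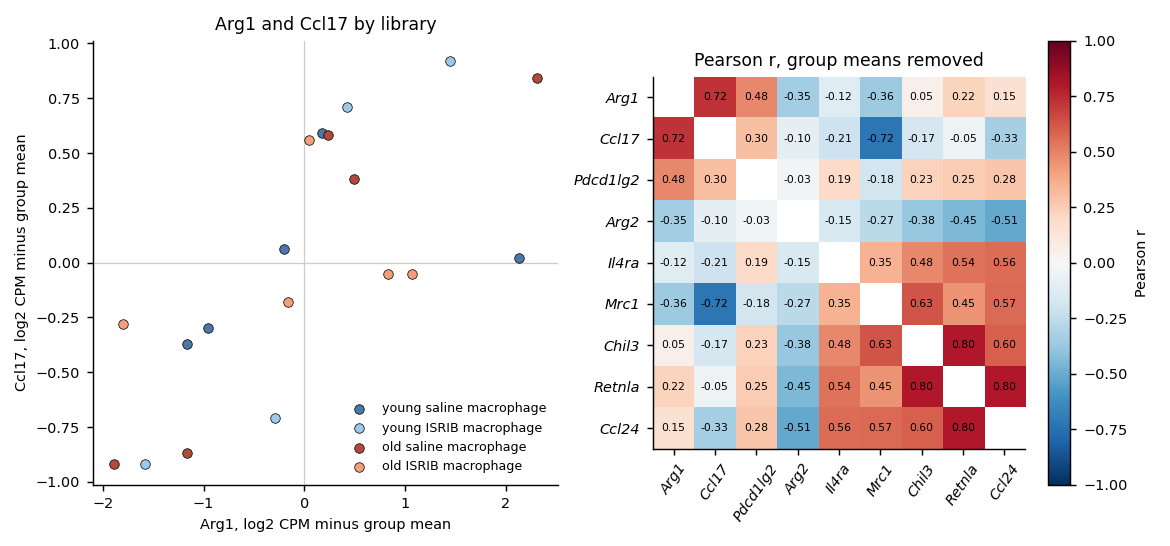
Left, log2 CPM of Arg1 and of Ccl17 less the group mean, one point per macrophage library, coloured by group; right, Pearson's r between the members over the 19 libraries on the same scale. Arg1 and Ccl17 (0.72), Chil3 and Retnla (0.80) and Retnla and Ccl24 (0.80) are the high pairs, and Mrc1 and Ccl17 (-0.72) the lowest.

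Summed levels of marker genes of other cell types moved with some of these values; r below is over the same 19 libraries less their group means and is a description. The 12 mature alveolar macrophage markers summed to 1794 to 2163 CPM in young saline, 2253 to 2407 in young ISRIB, 2214 to 2731 in old saline and 2505 to 3629 in old ISRIB libraries, with r = 0.57 for Mrc1, 0.43 for Chil3 and -0.54 for Arg1. The 7 classical monocyte markers summed to 400.3 to 596, 288 to 432, 209 to 729 and 181 to 330 CPM in the same order of groups, with r = 0.61 for Arg1, 0.72 for Ccl17 and -0.74 for Mrc1. Of these 7, Hp reached 572 CPM, Ccr2 453 and F13a1 69.0, and Ly6c2 was at most 7.01. The 10 B and plasma cell markers summed to 6.97 to 29.3, 11.2 to 24.6, 22.3 to 416 and 153 to 599 CPM, so that old ISRIB libraries were above all young ones, with r = 0.73 for Mrc1 and -0.58 for Ccl17. Ighm reached 380.3 CPM and Igkc 143 among them, and Ms4a1 and Cd79a were at most 10.5. The 14 T cell, innate lymphoid and NK cell markers summed to 66.6 to 76.4, 78.2 to 139.5, 62.0 to 126 and 105 to 137 CPM, with r = -0.71 for Ccl17. Il7r reached 126 CPM of that sum, and Cd3e was at most 4.0.

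The 12 dendritic cell markers summed to 154 to 396 CPM and had r = 0.74 with Arg1 and 0.74 with Ccl17. Cd24a was 142 to 373 CPM of it. Of the others Clec9a was 1.53 to 19.7 CPM, Fscn1 reached 7.22 and Ccr7 7.04, and the remaining 8, Flt3, Zbtb46 and Xcr1 among them, reached 2.5 to 5.5. The 14 epithelial markers summed to 75.3 to 179 CPM, highest in young saline 4, with r = 0.80 for Chil3, 0.72 for Retnla and 0.75 for Ccl24; Cdh1 reached 107 CPM and Hopx 48.3, and Sftpc was at most 9.17. The 9 endothelial markers summed to 116 to 262 CPM, lowest in young saline 4, with r = -0.81 for Arg1 and -0.72 for Ccl17. Vwf alone was 110 to 249 CPM of it, and the other 8 were at most 7.12. The 8 interstitial macrophage markers summed to 40.8 to 163 CPM (r = 0.70 for Retnla, 0.66 for Chil3). The 12 fibroblast markers summed to 10.7 to 225.5 CPM (-0.67 for Retnla, -0.62 for Ccl24), of which Mmp2 reached 211. The 9 macrophage markers summed to 6005 to 8555 CPM (-0.63 for Chil3 and for Mrc1). The 7 nonclassical monocyte markers summed to 184 to 563 CPM (0.61 for Arg1). The 11 neutrophil markers summed to 81.9 to 191 CPM (-0.70 for Ccl17, -0.63 for Arg1), with Ly6g at 0 in all libraries. The 8 eosinophil markers summed to 13.8 to 50.5 CPM (0.75 for Chil3), of which Siglece was 13 to 41.5, and Epx, Prg2 and Prg3 were at or near 0. Some of these markers also stand in the lists of pathway genes read below. Cdh1, F13a1, Folr2, Cd163, Mgl2, Cd209a, Ear6 and Alox15 are among the other alternative activation genes, and Pparg is among those of STAT6 signalling. The sums that hold them do not measure other cell types alone. The part of these levels in the member results was not tested.

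**Figure D5:**
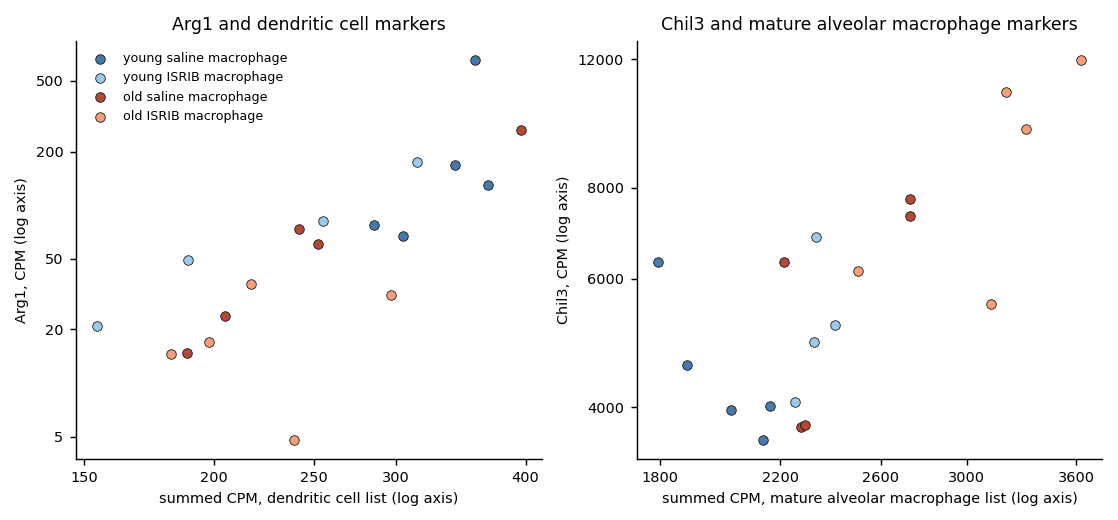
Left, Arg1 CPM against the summed CPM of the dendritic cell list, and right, Chil3 CPM against that of the mature alveolar macrophage list, on log axes, one point per macrophage library without group means removed. The mature alveolar macrophage list is highest in old ISRIB libraries (2505 to 3629) and lowest in young saline libraries (1794 to 2163).

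Genes whose levels over the 19 macrophage libraries were most like each member were sought among the 9612 genes that averaged 5 CPM or more, by Pearson's r of log2 CPM with the groups left in. Nearest to Arg1 were Cxcl14, a chemokine (0.91, 12.1 to 64.0 CPM), Ptgs1, the constitutive cyclooxygenase (0.91), Adam10, a sheddase (0.91), Dok2, an adaptor protein (0.90), and Cysltr1, a cysteinyl leukotriene receptor (0.89). Nearest to Mrc1 were Cd44, a hyaluronan receptor (0.93), Adipor2 (0.92) and Il6st, the shared interleukin-6 receptor chain (0.90). Chil3 was nearest to Serpinb1a, a protease inhibitor (0.91), and to the ribonucleases Ear1 (0.88) and Ear2 (0.86). Ccl17 was nearest to Dera (0.91), F7, coagulation factor VII (0.89), and Ms4a6d (0.89), Retnla to Cdh1, E-cadherin (0.84), and Il4ra to Sbno2, Notch1 and Stat3 (0.78 each). The nearest were at 0.83 for Arg2 (Il15) and for Pdcd1lg2 (Cdca7l) and at 0.82 for Ccl24 (Sirpb1a). All these libraries share groups and depth, and the values describe likeness only.

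The other genes of the pathway were read from lists. Of 21 genes of interleukin-4, interleukin-13 and STAT6 signalling, 19 were tested in the macrophages, and edgeR called none for ISRIB or for age, averaged or within a group. The ligand Il4 was at most 2.75 CPM in any macrophage library and Il13 had no count in the 19 libraries, which allows up to 0.0182 CPM over their pooled counts. Stat6 was 232 to 269 CPM in macrophages and 339 to 497 in monocytes. Against monocytes, 6 of 19 were higher and 8 lower in young saline macrophages, and 7 higher and 10 lower in old ones, beside the 60.0% and 57.0% of all genes called. Pparg, a lipid-sensing nuclear receptor of alveolar macrophages, was higher by 4.05 (log2) in young and 3.79 in old mice, and Egr2, a zinc finger factor, by 3.92 and 4.52. Kdm6b, a histone demethylase, was lower by -3.16 and -2.83.

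Of 24 other alternative activation genes, 23 were in the table and 19 were tested in macrophages. Cd36, a scavenger receptor for oxidised lipid, was higher with ISRIB averaged over ages (0.76 ± 0.15, edgeR adjusted p = 0.0179) and with age (0.67 ± 0.15, adjusted p = 0.00754). Socs2, a signalling inhibitor, was lower with age (-0.37 ± 0.08, adjusted p = 0.00836). Against monocytes, 16 of 22 were higher and 4 lower in young and 16 higher and 3 lower in old saline macrophages, where 31% and 29.7% of all genes were called higher and 60.0% and 57.0% called in all, with Mmp12, a macrophage elastase, at 10.6 (log2) in young mice. Of 15 relatives of the members, 5 were tested in macrophages. Ly75, of the mannose receptor family, was higher in old macrophages with saline (0.76 ± 0.15, adjusted p = 0.0116), with ISRIB (0.80 ± 0.16, 0.0123) and averaged (0.78 ± 0.11, 0.000137), and Cd274, the PD-L1 ligand related to Pdcd1lg2, with saline (0.53 ± 0.11, 0.0144) and averaged (0.42 ± 0.08, 0.00225). Ccl22, the other CCR4 ligand, was 2.25 to 13.4 CPM and higher than in monocytes by 5.47 in young and 5.40 in old saline mice (log2). The receptors Ccr3 and Ccr4 were at most 3.54 and 0.659 CPM in macrophages, and of the 7 receptors and partners none of the 3 tested was called within macrophages.

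Of 24 genes of arginine, polyamine and proline metabolism, 19 were tested in macrophages. The only call for ISRIB or age was Odc1, which makes putrescine from ornithine: it was 0.33 ± 0.10 higher in old macrophages (edgeR adjusted p = 0.0471), and was called in 6 of the 19 refits that left out 1 library. Slc7a2, a transporter of cationic amino acids such as arginine, was 644 to 893 CPM in every macrophage library and 0 to 2.6 in the monocytes (log2 9.94 ± 0.35 in young and 10.23 ± 0.36 in old saline mice). Nos2, the inducible nitric oxide synthase that competes with arginase for arginine, was at most 0.875 CPM in macrophages. Of 15 classical activation genes, 12 were tested. Ciita, the regulator of MHC class II, was lower with ISRIB averaged over ages (-0.73 ± 0.15, adjusted p = 0.0293), and with age Cd86, a costimulatory ligand, was lower with saline (-0.47 ± 0.11, 0.0256) and averaged (-0.41 ± 0.08, 0.00225), as was Irf5 averaged (-0.30 ± 0.08, 0.0258).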

How the data were processed

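RNA of sorted lung cells was measured in 39 libraries. The deposited table holds whole counts of reads per gene: per the submitters' processing notes the authors used bcl2fastq 2.19.1, FastQC, Trimmomatic 0.36, STAR 2.6.0 and HTSeq 0.11.2 on mm10, and per the labels' protocols polyA libraries were made from 3 ng of RNA. For the annotation release and the strand setting, the sources used here give nothing; the kit is not said to mark strand, so reads of Arg2 and Vti1b, of Pdcd1lg2 and A930007I19Rik, and of Mrc1 and Mir511 cannot be told apart where they overlap. Coordinates and exon lengths are of GENCODE on GRCm38, the same assembly as mm10. Of 43430 gene IDs, 42462 had a symbol and 18236 had no count.

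Counts were fitted with edgeR 4.0.16 (quasi-likelihood test, TMM, filterByExpr with a minimum count of 10 and total of 15, Benjamini-Hochberg adjustment over all genes tested, threshold 0.05) in R 4.3.3: the 19 macrophage libraries (12171 genes), the 20 monocyte libraries (12170) and, between cell types, all 39 (13587). The standard error of a log2 fold change was taken as its size divided by the square root of F. Alternatives were DESeq2 1.42.0, limma voom 3.58.1, other size factors, no filter, the replicate number as a block, all libraries in 1 fit, saline libraries only, and leaving out each library. Correlations used log2 CPM (TMM, prior count 2) less the group mean, with 100000 two-sided permutations within groups. Python was 3.11.15. Members are named in each comparison where the log2 fold change was at least its standard error, except for Retnla in comparisons with old saline monocytes; of each list, called genes with the largest changes, up to 5, and a few preset genes are named. The members and lists were chosen with earlier results of these data known. The contrasts averaged over ages or treatments were likewise known from those results to call more genes. Totals of 4595331 to 16056708 counts make 1 count worth at most 0.218 CPM; intervals cover counting error only.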

Additional observations from a re-analysis of the deposited data

Results flagged for a closer look

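Of 72 sets of libraries (9 members in 8 groups), 14 held a library whose gap to its nearest neighbour took up more than 0.71 of the group's range (0.829 in the group of 4); for normally distributed values chance gives about 1 in 20, and how often it does in these CPM, many of them at or near 0, was not tested. Replicate 4 of the young saline macrophages stood above its group for 3 members, at 657 CPM of Arg1, 38.8 of Retnla and 7.11 of Ccl24. In the other macrophage groups the libraries standing apart were old saline 2 for Arg1 (266 CPM), old ISRIB 4 for Ccl17 (14.3), old ISRIB 3 for Ccl24 (6.62) and young ISRIB 3 for Pdcd1lg2 (4.82). In monocytes, Chil3 was at 1292 CPM in old saline 3 and Il4ra at 523 CPM in young saline 5. The others were low monocyte values over libraries at or near 0: Retnla at 1.77 CPM in young saline 2, 0.348 in old saline 1 and 2.14 in old ISRIB 4, Ccl17 at 0.665 in young saline 2, and Ccl24 at 0.687 in young saline 1.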

How the results depend on the processing

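Of the members' log2 fold changes under other settings, 1678 kept their direction and side of the threshold, 40 came to pass it, 21 no longer did and 2 reversed. Of the counts of members called, 285 stayed within 1.5 times and 47 moved. With no filter on low counts, 3 members were called for ISRIB in old macrophages, 1 in young, 3 averaged, 1 for the difference between ages, 3 for age with saline, 2 with ISRIB and 2 averaged, 1 for age averaged in monocytes and 1 for the difference of the saline age effects; the cause was not tested. DESeq2 called 1 member for age in saline macrophages, 1 for age averaged in monocytes and 2 for the difference of the saline age effects. With all 39 libraries in 1 fit, 0 were called for ISRIB averaged in macrophages and 1 for age averaged in monocytes. Leaving out each library gave 0 to 2 called members for ISRIB averaged and for age averaged in macrophages, 0 to 1 for ISRIB in young macrophages, for age with ISRIB, for age averaged in monocytes, for the difference of the saline age effects and for the correlations with Arg1. Retnla reversed in monocytes when young saline 2 was left out: its age difference ranged from -4.77 to 2.47 with saline and from -3.19 to 0.43 averaged. Replicate numbers did not pair the libraries: same-numbered libraries had a median correlation of 0.00384 in macrophages and -0.0142 in monocytes, and 7 of 19 and 2 of 20 were nearest to their own number. With the replicate number as a block, Il4ra in young saline mice was called higher in macrophages (0.65, adjusted p = 0.0312), and Mrc1 with ISRIB stayed called (0.38, adjusted p = 0.0201).

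The number of all genes called varied more. For ISRIB averaged over ages in macrophages it was 101, and 640 with no filter, 440 by DESeq2, 169 by limma voom, 343 with the block, 17 with all 39 libraries and 13 to 649 without 1 library. For ISRIB in old macrophages it was 0, and 220 with no filter, 43 by DESeq2 and 0 to 30 without 1 library, and in young macrophages 0, 224, 105, 10 with the block and 0 to 304 (304 without young ISRIB 3). For the difference between ages it was 0, and 33 with no filter. For age with saline it was 141, and 468, 294 by DESeq2, 60 with all libraries and 47 to 289. With ISRIB it was 114, and 405, 260, 50 and 33 to 161. For age averaged it was 592, and 975 with no filter and 340 with all libraries. In monocytes, age averaged had 15, and 40 with no filter, 83 by DESeq2, 44 with all libraries and 6 to 25 without 1 library. Low members (Ccl24, Arg2, Pdcd1lg2, and Arg1, Retnla and Ccl17 in monocytes) rest on few counts per library, and differences in them were not detectable at this depth unless large.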
